A study of Neurospora crassa with 6 samples.

Results

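The late-numbered loci of the Neurospora crassa annotation were examined: every gene of the expression table whose locus tag is NCU followed by a number of 16000 or more. They were chosen by this number alone and made up 491 of the 9730 loci, and the other 9239 carried numbers below 16000. The numbers ran from 16303 to 17285, and a gap separated them from the highest earlier number, 15836. RNA was measured in 6 liquid cultures. In the mutant group, 3 cultures came from strain 1810, which carries ras-1bd, a prd-2 gene disrupted by the barR marker and mating type A. In the control group, 3 cultures came from strain 328-4, which carries ras-1bd and mating type A with prd-2 left in place. Growth of all 6 was in shaken Bird medium (1.8% glucose), kept in constant light, for 48 h and at 25 °C. Each group was a single strain, so any other difference between strains 1810 and 328-4 cannot be told apart from the loss of prd-2. The titles number the replicates without saying that they were grown separately, so p-values reflect only the spread within these sets of 3, which may be technical.

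Neurospora crassa is a filamentous fungus that grows as a network of hyphae, and its genome was among the earliest of the filamentous fungi to be sequenced. NCU locus tags are catalogue numbers of predicted genes and carry no statement of function. Genes missed by early gene prediction received tags in later rounds of annotation, and such genes are often short or lie between or over older models. The gene prd-2 (period-2) is known from a mutant with a long circadian period, and its product is known to keep up the transcript of casein kinase I, which phosphorylates the clock protein FRQ. Most of the late-numbered loci have no described product, so they are ordered here by level and by change.

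The RefSeq gene table of assembly NC12 held 490 of the 491 loci. All 490 were listed there as protein-coding, and none lay on the mitochondrial genome. They were spread over all 7 nuclear chromosomes, and the numbers rose without exception along each chromosome, in 483 of 483 steps between successive late-numbered loci. Only 3 of the 491 (0.611%) had a symbol of their own, against 1115 of the 9239 earlier-numbered loci (12.1%). The annotated span overlapped that of another gene for 114 of the 490. The single locus not found in that table was NCU16635.

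The libraries were checked first. The labels and the RefSeq table do not pair prd-2 with a locus tag, and NCU01019 is taken for it here from knowledge of the gene. It measured 7.69, 6.29 and 6.37 FPKM in the mutant cultures, against 26.5, 24.7 and 27.3 FPKM in the control cultures. FPKM is a fragment count divided by transcript length and library size, a level that can be compared between genes. Across tested late-numbered loci, Pearson correlations of log2(FPKM + 1) were 0.981 to 0.990 between cultures of the same strain and 0.914 to 0.935 between cultures of different strains, over loci that are not independent replicates. Of 6 genes known from conidia, the asexual spores, 5 were tested. Of these, con-6 was higher in the mutant and con-8 and con-10 were lower, while eas and fl did not pass the test and con-13 was at or near 0 throughout. Their summed level was 1356 to 3192 FPKM in the mutant cultures and 1815 to 1992 FPKM in the control cultures. The highest sum was that of mutant replicate 1 and came mostly from eas. That gene measured 2382, 745 and 634 FPKM in the mutant cultures, against 685, 664 and 833 FPKM in the control cultures. The part of conidia in any result was not tested.

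The late-numbered loci were detected less broadly and at lower levels than the earlier-numbered ones. Of the 491 loci, 345 (70.3%) had a value above 0 in all 6 cultures, against 86.6% of the earlier-numbered loci. At the other end, 58 (11.8%) were listed at 0 in all 6 cultures, against 625 of the earlier-numbered loci (6.76%). The median of the mean FPKM was 2.04 (quartiles 0.195 and 12.6) for late-numbered loci and 15.9 (quartiles 3.13 and 45.6) for earlier-numbered loci. A mean of at least 100 FPKM was reached by 20 late-numbered loci (4.07%) and by 1100 earlier-numbered loci (11.9%). These shares are descriptions of the lists and were not tested against each other. The depth behind the values is unknown, so a value of 0 says only that the locus is listed at 0.

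**Figure D1:**
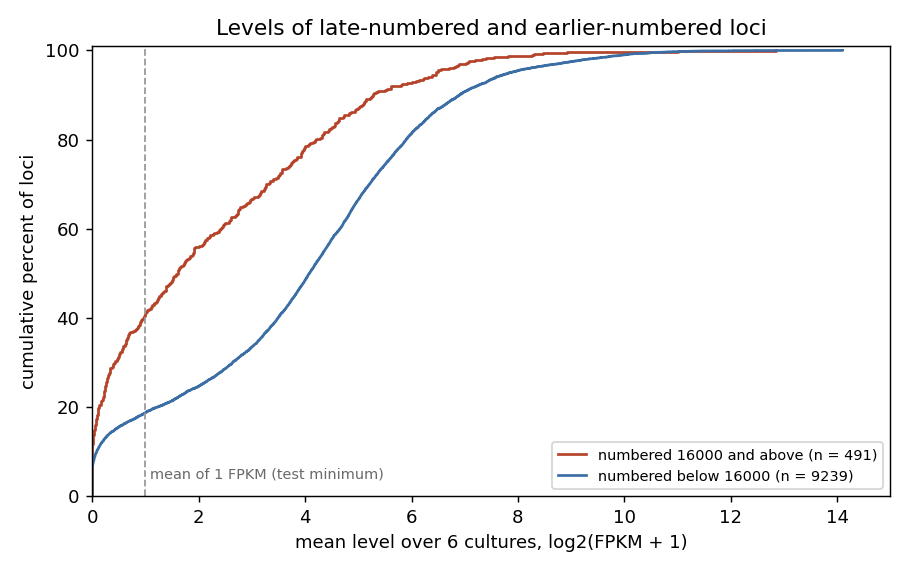
Cumulative percent of loci (vertical axis) at or below a mean level over the 6 cultures, log2(FPKM + 1) (horizontal axis), for the 491 late-numbered loci and the 9239 earlier-numbered loci. The curve of the late-numbered loci lies to the left: 58.9% of them and 81.3% of the earlier-numbered loci reached the mean of 1 FPKM marked by the dashed line.

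Detection was compared between the strains culture by culture. At 1 FPKM or more, 280, 285 and 284 of the 491 loci were found in the mutant cultures, against 293, 293 and 287 in the control cultures. The groups did not overlap, and the exact two-sided permutation test over the 6 cultures gave p = 0.1, the smallest it can give for 3 against 3. The earlier-numbered loci showed a difference of similar size in percent: 57.6% ± 0.539 in mutants and 59.3% ± 0.706 in controls for the late-numbered loci, and 79.9% ± 0.122 in mutants and 81.6% ± 0.195 in controls for the earlier-numbered ones (SD, n = 3 each). The number listed at 0 was 98, 96 and 105 in the mutant cultures and 91, 92 and 93 in the control cultures (exact permutation p = 0.1). The 3 loci at 0 in all mutants and above 0 in all controls, and the 3 with the reverse pattern, all stayed under 1 FPKM in every culture.

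The late-numbered loci together held 2.47%, 2.42% and 2.54% of the summed FPKM in the mutant cultures, against 2.57%, 2.74% and 2.70% in the control cultures (exact permutation p = 0.1). Much of this came from NCU16635 alone. Without it, a choice made after the data were seen, the shares were 1.49%, 1.43% and 1.45% in the mutant cultures and 1.51%, 1.54% and 1.55% in the control cultures, and the difference in means moved to -0.081 percentage points, against -0.197 with it. Over the late-numbered loci whose span overlaps no other, a list that also lacks NCU16635, the difference was -0.018 percentage points.

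The pair of late-numbered loci with the highest levels had small differences between the strains. NCU16635 ranked 4 of all 9730 loci by mean level. It measured 6647, 6916 and 7532 FPKM in the mutant cultures, against 7221, 8053 and 7668 FPKM in the control cultures. The groups overlapped, and the change did not pass the test (log2 fold change -0.12, SE 0.082, limma adjusted p = 0.262), with the sign turning to 0.19 under quantile normalization. NCU16822 ranked 28 and measured 1919, 1746 and 2008 FPKM in the mutant cultures, against 2246, 2276 and 2146 FPKM in the control cultures. All mutant values lay below all control values (log2 fold change -0.23, SE 0.073, limma adjusted p = 0.0323), but the call was lost with the replicate block (adjusted p = 0.0636), without a filter (0.0574) and without mutant replicate 2 (0.101) or control replicate 1 (0.0696), 2 (0.112) or 3 (0.0599).

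The next in level differed more. NCU16460 measured 426, 398 and 403 FPKM in the mutant cultures, against 550.4, 549.8 and 576 FPKM in the control cultures, without overlap (log2 fold change -0.45, SE 0.055, limma adjusted p = 0.000591). Its span overlaps that of ada-1 (NCU00499), which was lower by a like amount (log2 fold change -0.43), and how shared fragments were assigned is not stated. NCU16844 measured 387, 358 and 418 FPKM in the mutant cultures, against 223, 233 and 269 FPKM in the control cultures, and rose by 0.68 log2 units (SE 0.090, limma adjusted p = 0.000872). NCU16673 measured 525, 644 and 328 FPKM in the mutant cultures, against 344, 143 and 135 FPKM in the control cultures. Control replicate 1 lay above mutant replicate 3, so the groups overlapped, and the rise of 1.35 log2 units (SE 0.39, limma adjusted p = 0.0253) lost its call without a filter (adjusted p = 0.0854) and without mutant replicate 1 (0.0755) or 2 (0.0839) or control replicate 2 (0.0856) or 3 (0.0774).

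Changes between the strains were tested with limma for loci with a mean of at least 1 FPKM over the 6 cultures, on log2(FPKM + 1) values. The added 1 understates the change of low loci. Of the 491 late-numbered loci, 289 (58.9%) passed this minimum, of which 12 reached a mean of 1 FPKM in controls only and 5 in mutants only. These 17 passed through the strain in which they were high, and 11 of them are among the calls counted next. With p-values adjusted over all 7797 tested loci and a threshold of 0.05, 115 of the 289 (39.8%) were called, where 47.8% of all tested loci were called and 48.1% of the earlier-numbered ones. Of the 115, 47 were higher in the mutant (16.3% of the 289) and 68 were lower (23.5% of the 289). Of all tested loci, 24% were called higher and 23.8% lower. The split depended on the scaling: quantile normalization gave 71 higher and 50 lower, and the TPM scale 42 higher and 74 lower. It also differed by level, as given below.

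The median change of the 289 tested late-numbered loci was -0.05 log2 units (quartiles -0.29 and 0.18), against 0.01 (quartiles -0.21 and 0.21) for the earlier-numbered ones. Under quantile normalization both medians were above 0, at 0.06 and 0.05. Mutant and control values did not overlap for 136 of the 289 (47.1%), where 59.8% of all tested loci did not overlap. Out of the 289, 81 were lower in the mutant without overlap, against 2287 of all 7797 tested loci (29.3%). The other 55 were higher without overlap, against 2376 of all 7797 (30.5%). Changes of at least 2-fold were called for 24 late-numbered loci (8.30%), where 7.43% of all tested loci passed both criteria. Out of the 289, 7 were called higher by at least 2-fold, against 163 of all 7797 tested loci (2.09%). The other 17 were called lower by at least 2-fold, against 416 of all 7797 (5.34%). Of the 24, 7 had passed the minimum in 1 strain only, and without such loci it was 17 of 272 late-numbered loci (6.25%) and 480 of 7338 earlier-numbered loci (6.54%). These 7 were NCU16929 and NCU16744 among the rises and NCU16445, NCU17138, NCU17137, NCU16320 and NCU16805 among the falls, so that their tests below are descriptions. The other 91 called loci changed by less than 2-fold. The median size of a called change was 0.49 log2 units for the late-numbered loci and 0.43 for the earlier-numbered ones.

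**Figure D2:**
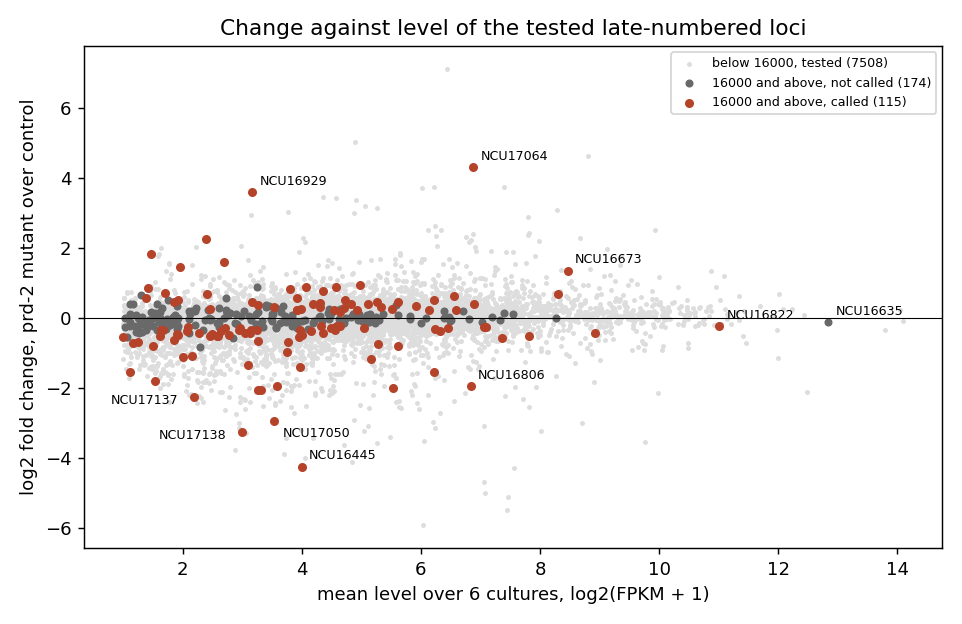
Log2 fold change of prd-2 mutant over control (vertical axis) against mean level over the 6 cultures, log2(FPKM + 1) (horizontal axis). Red points are the 115 called late-numbered loci, dark points the 174 tested but not called, and pale points the 7508 tested earlier-numbered loci, and most late-numbered loci lie at low level and near 0 change, with NCU17064 and NCU16929 farthest up and NCU16445 farthest down among them.

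The share called was set beside the level, since low loci dominate the list. Between 1 and 5 FPKM, 32 of 102 late-numbered loci (31.4%) were called, against 40.6% of 987 earlier-numbered loci. Between 5 and 20 FPKM it was 42.3% of 97 late-numbered and 44.8% of 2420 earlier-numbered loci. Between 20 and 100 FPKM the shares were 44.3% of 70 and 49.8% of 3001. At 100 FPKM and above they were 55% of 20 late-numbered and 57.5% of 1100 earlier-numbered loci. In every bin the late-numbered share was the lower, and the gap was widest at the lowest level. The median spread between cultures of a strain (SD on the log2 scale) in that lowest bin was 0.200 for late-numbered and 0.142 for earlier-numbered loci. It was 0.132 and 0.096 between 5 and 20 FPKM, and 0.084 and 0.082 between 20 and 100 FPKM. At 100 FPKM and above it was 0.090 and 0.083. The part of this spread in the smaller share of calls was not tested. Direction differed by level too. Between 1 and 5 FPKM, 10 late-numbered loci were called higher and 22 lower, against 85 and 316 earlier-numbered loci. Between 5 and 20 FPKM it was 15 and 26, against 440 and 643. Between 20 and 100 FPKM it was 18 and 13, against 899 and 595. At 100 FPKM and above it was 4 and 7, against 399 and 233. From the lowest bin up, medians of late-numbered and earlier-numbered changes were -0.11 and -0.14, -0.08 and -0.02, 0.01 and 0.05, and -0.04 and 0.10.

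**Figure D3:**
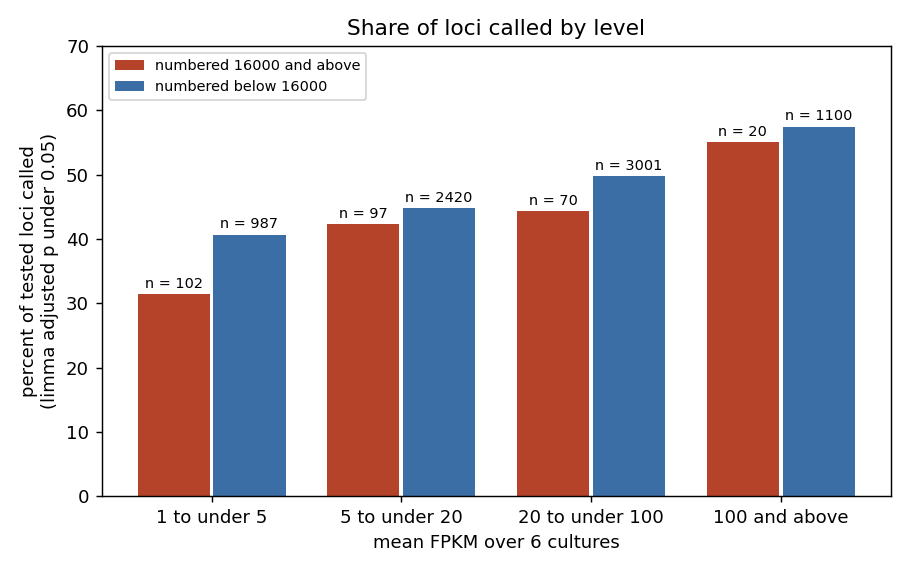
Percent of tested loci called at a limma adjusted p under 0.05 (vertical axis, from 0) in 4 bins of mean FPKM (horizontal axis), for late-numbered loci (red) and earlier-numbered loci (blue), with the number tested above each bar. The red bar is the shorter in all 4 bins, at 31.4% against 40.6% in the lowest and 55% against 57.5% in the highest.

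The called share was next split by number, by overlap and by chromosome, as a description with no test. It was 89 of 221 (40.3%) for numbers below 17000 and 26 of 68 (38.2%) for numbers from 17000. Loci whose span overlaps another were called in 31 of 84 cases (36.9%) and the others in 84 of 204 (41.2%), against 46.9% and 48.5% of the earlier-numbered loci with and without overlap. Changes of at least 2-fold were called for 22 of 204 late-numbered loci without span overlap (10.8%) and 2 of 84 with it (2.38%). Among the earlier-numbered loci it was 444 of 5469 without span overlap (8.12%) and 111 of 2039 with it (5.44%). By chromosome the share ran from 7 of 26 (26.9%) on chromosome VII to 15 of 28 (53.6%) on chromosome II. The earlier-numbered loci were called at 50.9% and 47.0% on those chromosomes. On chromosome VII none of the 26 tested late-numbered loci was called with a change of at least 2-fold, against 83 of 763 earlier-numbered loci (10.9%).

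The largest rise was that of NCU17064. It measured 199, 229.6 and 239.7 FPKM in the mutant cultures, against 9.80, 10.04 and 10.9 FPKM in the control cultures. Every mutant value was far above every control value, and the mean was 21.7 times as high (log2 fold change 4.31, SE 0.081, limma adjusted p = 4.5e-07), which ranked 9 among all 7797 tested loci by size. NCU16929 measured 16.4, 17.3 and 12.99 FPKM in the mutant cultures, against 0.331, 0.367 and 0.382 FPKM in the control cultures, where it was close to silent and under the test minimum. The rise was 3.60 log2 units (SE 0.11, limma adjusted p = 6.04e-06). Its mean was 43.3 times as high in the mutant, against 21.7 times for NCU17064. With 0.1 in place of 1 added to FPKM, NCU16929 rose more (5.08 against 4.43 log2 units), so their order depends on the added value.

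Lower-level loci followed. NCU16741 measured 4.82, 4.78 and 12.6 FPKM in the mutant cultures, against 0, 0 and 3.17 FPKM in the control cultures, and rose by 2.26 log2 units (SE 0.60, limma adjusted p = 0.0181). Its spread was wide, and the call was lost without mutant replicate 3 (adjusted p = 0.0561), without control replicate 2 (0.0642) and without a filter (0.0682). NCU16744 measured 4.29, 1.49 and 4.30 FPKM in the mutant cultures, against 0.188, 0.278 and 0.0701 FPKM in the control cultures (log2 fold change 1.81, SE 0.29, limma adjusted p = 0.00216). NCU17053 measured 6.56, 8.93 and 10.7 FPKM in the mutant cultures, against 2.54, 2.01 and 2.11 FPKM in the control cultures, and its lowest mutant value was more than the highest control value (log2 fold change 1.58, SE 0.16). NCU17044 measured 6.21, 3.85 and 3.95 FPKM in the mutant cultures, against 1.30, 0.963 and 0.894 FPKM in the control cultures (log2 fold change 1.45, SE 0.17).

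The remaining members of the 10 largest rises without overlap between strains rose by less than 2-fold on this scale, by 0.85 to 0.92 log2 units, with limma adjusted p from 0.000178 to 0.00223. NCU17019 measured 42.5, 35.7 and 42.1 FPKM in the mutant cultures, against 19.3, 20.4 and 22.3 FPKM in the control cultures. NCU16624 averaged 29.7 ± 3.15 FPKM in mutants and 15.8 ± 0.797 FPKM in controls (SD, n = 3 each). Its span overlaps that of NCU07878, which stayed at 34.6 ± 1.64 FPKM in mutants and 34.5 ± 1.30 FPKM in controls (limma adjusted p = 0.968). NCU16318 averaged 20.6 ± 2.69 FPKM in mutants and 10.9 ± 2.09 FPKM in controls, and its span overlaps that of NCU09085, which rose by 0.91 log2 units. NCU17244 averaged 2.46 ± 0.464 FPKM in mutants and 0.909 ± 0.180 FPKM in controls (SD, n = 3 each). It had passed the minimum through the mutant cultures only, so that its test (limma adjusted p = 0.00223) is a description as well.

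The largest fall was that of NCU16445. It measured 0.455, 0.482 and 0.717 FPKM in the mutant cultures, against 40.3, 27.2 and 20.9 FPKM in the control cultures. On average the mutant held 1.87% of the control level. This change (-4.25 on the log2 scale, SE 0.21, limma adjusted p = 1.64e-05) ranked 11 among all tested loci by size. The span of NCU16445 overlaps that of NCU00663, which measured 61.5 ± 2.59 FPKM in mutants and 60.0 ± 5.23 FPKM in controls (SD, n = 3 each) and did not pass the test (limma adjusted p = 0.703).

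NCU17138 measured 0.395, 0.430 and 0.682 FPKM in the mutant cultures, against 14.2, 14.2 and 11.7 FPKM in the control cultures (log2 fold change -3.26, SE 0.11, limma adjusted p = 6.65e-06). NCU17137, its neighbour, measured 0.619, 0.363 and 0.701 FPKM in the mutant cultures, against 8.42, 6.22 and 5.14 FPKM in the control cultures (log2 fold change -2.27, SE 0.17). Both were near silent in every mutant culture. NCU17050 measured 1.06, 2.06 and 1.62 FPKM in the mutant cultures, against 27.7, 16.8 and 14.0 FPKM in the control cultures (log2 fold change -2.96, SE 0.25, limma adjusted p = 0.000124). NCU16917 measured 2.73, 2.44 and 2.83 FPKM in the mutant cultures, against 17.9, 13.2 and 12.5 FPKM in the control cultures (log2 fold change -2.07, SE 0.13). In each of these every mutant value lay well below the lowest control value.

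NCU16905 measured 4.20, 2.36 and 1.95 FPKM in the mutant cultures, against 19.0, 17.02 and 9.37 FPKM in the control cultures (log2 fold change -2.06, SE 0.29, limma adjusted p = 0.00118). NCU16472 measured 4.38, 3.33 and 4.04 FPKM in the mutant cultures, against 19.2, 17.8 and 16.8 FPKM in the control cultures (log2 fold change -1.95, SE 0.096). NCU16320 measured 0, 0.680 and 0.228 FPKM in the mutant cultures, against 4.63, 3.34 and 2.59 FPKM in the control cultures (log2 fold change -1.80, SE 0.24). A pair of falls concerned loci of higher level. NCU16806 measured 48.1, 39.96 and 49.5 FPKM in the mutant cultures, against 177, 184 and 179 FPKM in the control cultures (log2 fold change -1.96, SE 0.084, limma adjusted p = 1.11e-05). NCU16555 measured 19.1, 14.5 and 18.8 FPKM in the mutant cultures, against 56.5, 77.2 and 85.6 FPKM in the control cultures (log2 fold change -1.99, SE 0.17). A neighbour of NCU16555, NCU01792, which carries the symbol hsp90a, went the other way and was higher by 0.46 log2 units.

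**Figure D4:**
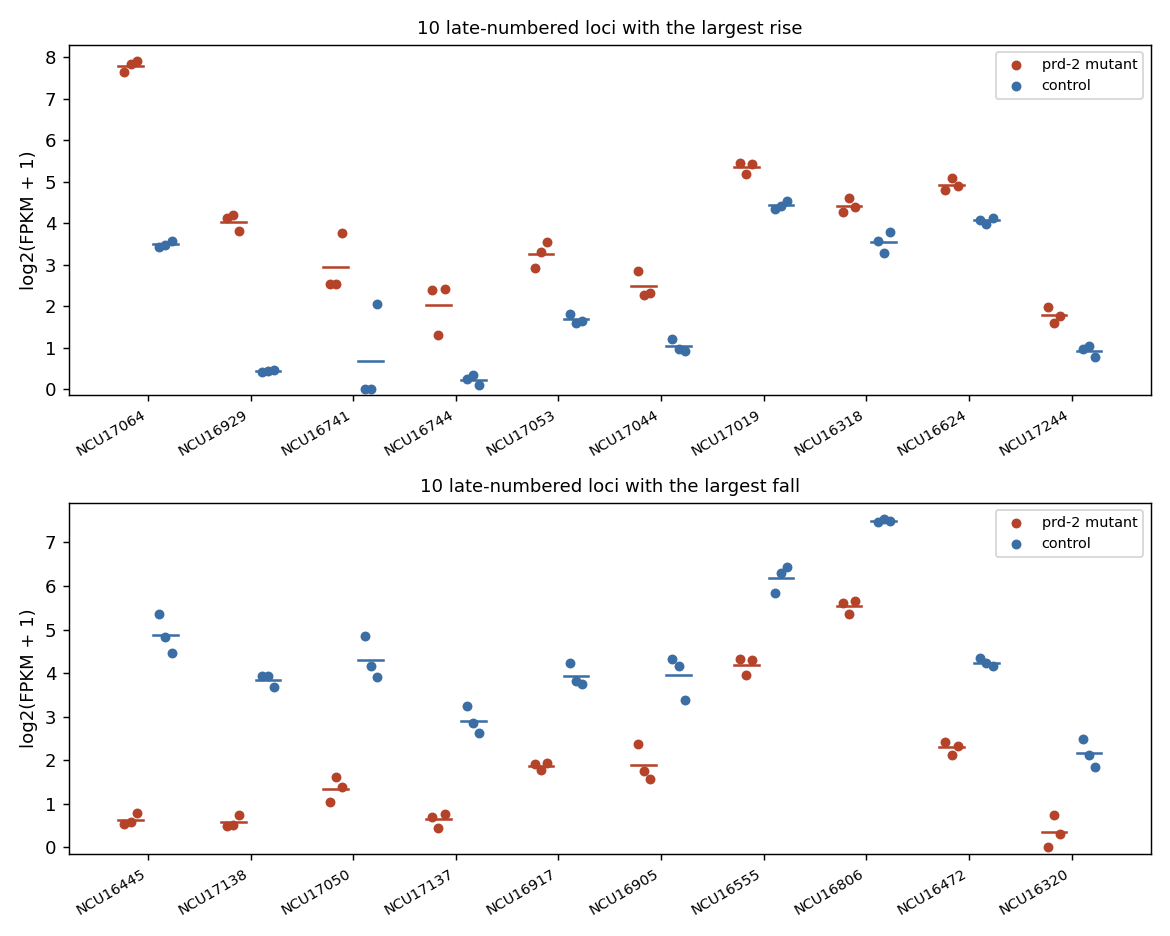
Values of each culture, log2(FPKM + 1) (vertical axes), for the 10 late-numbered loci with the largest rise (upper panel) and the 10 with the largest fall (lower panel) among those called without overlap between strains, with prd-2 mutant (red) left of control (blue) and a bar at each mean. NCU16445, NCU17138 and NCU17137 lie below 1 FPKM in all 3 mutant cultures, and NCU16929 lies below 1 FPKM in all 3 control cultures.

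The surroundings of the changed loci were then listed, using the order of genes in the RefSeq table. Among the 10 largest falls, 14 of the 20 nearest measured neighbours were tested. NCU17137 and NCU17138 were each other's neighbour and both chosen as falls, so they were left out of this count. Of the other 12, 6 were called lower, 2 higher and 4 were not called, where 23.8% of all tested loci were called lower. Among the 10 largest rises, 11 of 20 neighbours were tested. Of these 11, 4 were called higher, 1 lower and 6 not, where 24% of all tested loci were called higher. The span of the member was overlapped by 2 neighbours of rises, NCU09085, called higher, and NCU07878, not called. Among the neighbours of falls this held for 1, NCU00663, not called. Neighbours of the largest changes among earlier-numbered loci were not counted. Over all 415 neighbouring pairs of a late-numbered and an earlier-numbered locus in which both were tested, the log2 fold changes had a Pearson correlation of 0.17 (Spearman 0.17). For the 6172 pairs of earlier-numbered loci it was 0.20 (Spearman 0.13). These are descriptions across pairs that share loci and cultures. The strand of the genes is not in that table.

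Several late-numbered loci lay within runs of neighbours that moved the same way, which were picked out after their values were seen. The loci NCU16806, NCU16807, NCU04488, NCU04487, NCU04486 and NCU04485 formed a run of 6 that were all called lower. Within it NCU16807 measured 34.9, 33.2 and 42.6 FPKM in the mutant cultures, against 116, 106 and 107 FPKM in the control cultures (log2 fold change -1.55, SE 0.095, limma adjusted p = 3.49e-05). NCU04487 fell by 1.96 log2 units and NCU04488 by 1.36. On the other side of NCU16806, past NCU04490, which was under the test minimum, NCU16805 measured 0, 0.290 and 0 FPKM in the mutant cultures, against 1.97, 2.46 and 2.22 FPKM in the control cultures (log2 fold change -1.56, SE 0.15). Beyond it NCU04491 measured 98.7 ± 13.3 FPKM in mutants and 386 ± 14.5 FPKM in controls (SD, n = 3 each; log2 fold change -1.97). The late-numbered NCU16803, at the far end, has a span that overlaps that of NCU04491 and was higher by 0.46 log2 units (limma adjusted p = 0.0490).

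The pair NCU17137 and NCU17138 stood beside NCU05126, which measured 7.04, 19.99 and 31.0 FPKM in the mutant cultures, against 489.6, 360.0 and 222 FPKM in the control cultures (log2 fold change -4.28, SE 0.50). On the other side, past NCU12137, NCU05123 was lower by 1.02 log2 units and NCU05122 by 5.93 (log2 fold changes -1.02 and -5.93). Next to these, NCU05121 was higher by 0.26 log2 units (limma adjusted p = 0.0357), and on the far side NCU05127 and NCU05128 were not called. NCU16905 stood beside NCU10040, an abundant transcript in controls, which averaged 134 ± 43.4 FPKM in mutants and 1596 ± 528 FPKM in controls (SD, n = 3 each; log2 fold change -3.56). NCU16472 lay between NCU02913 (log2 fold change -1.60) and, past NCU16473, NCU02910 (log2 fold change -2.27). NCU16917 lay between the silent or near-silent NCU07801 and NCU07799, with NCU07802 (log2 fold change -2.50) and NCU07798 (log2 fold change -2.38) just beyond.

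The surroundings of the rises were described in the same way. NCU17064 stood between NCU04692, which did not pass the test (log2 fold change -0.12, limma adjusted p = 0.498), and NCU12075, which was under the test minimum at 1.34, 1.26 and 1.16 FPKM in mutants, against 0.199, 0.398 and 0.221 FPKM in controls. Farther on, NCU04695 and NCU04697 were called higher (log2 fold changes 0.36 and 1.33). The 4 measured loci before NCU16929 were listed at 0 in all 6 cultures. NCU17244 opened a run of 6 loci called higher, together with NCU02329, NCU02328, NCU02327, NCU02326 and NCU02325, whose log2 fold changes were 1.22, 0.76, 0.48, 0.66 and 0.98. The abundant NCU16673 stood beside NCU00265, which averaged 1655 ± 187 FPKM in mutants and 303 ± 95.8 FPKM in controls (SD, n = 3 each; log2 fold change 2.49, limma adjusted p = 0.000164). Runs of any length and any size of change held a like share of both lists. In all, 52 of the 115 called late-numbered loci (45.2%) and 1591 of the 3610 called earlier-numbered loci (44.1%) lay in a run of at least 2 neighbours called the same way. How often runs as long, or with changes as large, as those described occur among earlier-numbered loci was not counted.

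**Figure D5:**
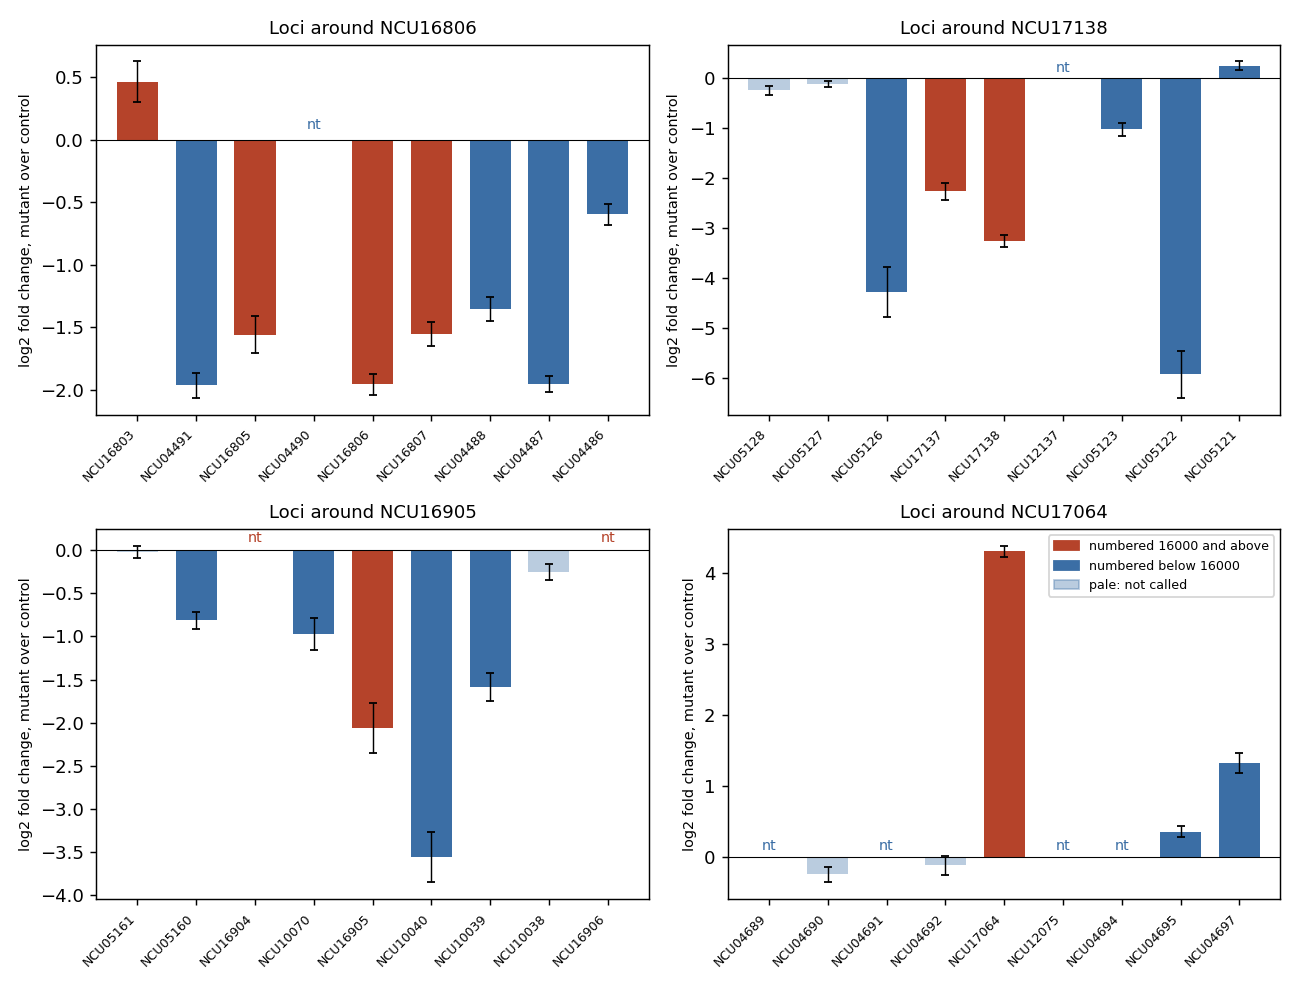
Log2 fold change of prd-2 mutant over control (vertical axes, bars with limma SE) for the 4 measured loci on each side of NCU16806, NCU17138, NCU16905 and NCU17064 in gene order (horizontal axes), late-numbered loci in red and earlier-numbered in blue, pale where not called, and "nt" where under the test minimum. The first 3 loci have called falls close by, but each window also holds loci not called, not tested or called higher (NCU16803 in the first and NCU05121 in the second), while the direct neighbours of NCU17064 were not called or not tested, with NCU04695 and NCU04697 farther on called higher.

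The 3 late-numbered loci with a symbol were described by name. The gene stk-58 (NCU16821) has a symbol of the series used for serine/threonine protein kinase genes in this fungus. It measured 85.4, 92.6 and 81.3 FPKM in the mutant cultures, against 59.4, 59.7 and 62.4 FPKM in the control cultures, and rose by 0.51 log2 units (SE 0.062, limma adjusted p = 0.000599). It is the direct neighbour of the abundant NCU16822, whose values were lower in the mutant. The locus nup-9 (NCU16337) measured 24.8, 24.4 and 23.1 FPKM in the mutant cultures, against 20.8, 20.9 and 20.3 FPKM in the control cultures, without overlap between the strains (log2 fold change 0.21, SE 0.051, limma adjusted p = 0.0122). Its span overlaps that of NCU02068, which did not pass the test.

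The gene mfa-1 (NCU16992) is known as the pheromone precursor gene of mating type a, and both strains here are of mating type A. It measured 7.52, 6.71 and 9.36 FPKM in the mutant cultures, against 6.44, 8.55 and 7.51 FPKM in the control cultures. It was thus detected at a modest level in all 6 cultures. The groups overlapped and the change did not pass the test (log2 fold change 0.06, SE 0.13, limma adjusted p = 0.754), with its sign turning without mutant replicate 3 or control replicate 1.

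The loci on either side of the number that defines the list were set side by side, with no test. The lowest-numbered member, NCU16303, measured 9.01, 5.84 and 5.55 FPKM in the mutant cultures, against 2.30, 4.79 and 6.33 FPKM in the control cultures. The next, NCU16305, was listed at 0 in all 6 cultures. The highest-numbered of the earlier loci, NCU15836, averaged 3.38 ± 0.0979 FPKM in mutants and 3.54 ± 0.505 FPKM in controls, and NCU15835 averaged 30.8 ± 0.902 FPKM in mutants and 28.5 ± 1.13 FPKM in controls (SD, n = 3 each).

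A further 202 late-numbered loci had a mean under 1 FPKM and were not tested, of which 35 reached 1 FPKM in at least 1 culture. In the fit without a filter, where 37.2% of all 9730 loci were called, 26 of these 202 (12.9%) were called, of which 18 had lower and 8 had higher values in the mutant. Among the earlier-numbered loci under the same minimum it was 179 of 1731 (10.3%), of which 142 were lower and 37 higher. Some came close to an on and off pattern at this low level, and those named here were chosen after their values were seen. NCU16745 measured 0, 0.0565 and 0 FPKM in the mutant cultures, against 1.20, 0.996 and 1.001 FPKM in the control cultures (log2 fold change -1.02 without the filter, limma adjusted p = 0.000675). NCU16738 measured 1.22, 2.13 and 1.53 FPKM in the mutant cultures, against 0.252, 0 and 0 FPKM in the control cultures (log2 fold change 1.27 without the filter, limma adjusted p = 0.00539).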

How the data were processed

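Polyadenylated RNA was sequenced as directional paired-end reads of 150 bp, per the labels' protocols. The authors deposited FPKM values, 1 per locus and culture. The submitters' processing notes name STAR and Cuffnorm; versions, genome build, annotation, strand setting and the handling of fragments shared between genes are not given in the sources used here. FPKM is relative to library size, so abundant genes shift all others, and the depth is unknown. The RefSeq gene table of assembly NC12 gave symbols, overlaps and gene order, and held 9729 of the 9730 loci. It gives no product names, so no pathway list could be made, and no coordinates are given.

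Here log2(FPKM + 1) values of loci with a mean of at least 1 FPKM were fitted with limma 3.58.1 (trend) in R 4.3.3, mutant over control, with Benjamini-Hochberg adjustment over all tested loci and a threshold of 0.05, and the fit was tested on simulated data. Exact permutation tests used scipy 1.17.1. Named loci were the 10 largest rises and 10 largest falls called without overlap, the 5 highest in level, those with a symbol, and 2 on each side of the number 16000. The alternatives tried were a pseudocount of 0.1, no minimum or one of 5 FPKM, TPM and other scalings, no trend, a replicate block, members without overlapping spans, and leaving out each culture. Members and lists were chosen with earlier results of these data known.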

Additional observations from a re-analysis of the deposited data

How the results depend on the processing

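The numbers of late-numbered loci called, lower and changed at least 2-fold stayed within 1.5 times the reported counts in every alternative run, and so did the number higher except under quantile normalization, which gave 71. Their median change of -0.05 log2 units turned to 0.0596 under quantile normalization. It was -0.081 on the TPM scale, -0.084 with totals over earlier-numbered loci and -0.0022 without a filter. The TPM scale moved the median of the earlier-numbered loci as well, to -0.02, and the filter alternative adds loci at or near 0; for quantile normalization the cause was not tested. Leaving out each culture gave 90 to 110 called, 37 to 49 higher, 53 to 65 lower, 22 to 25 changed at least 2-fold, a median of -0.063 to -0.033, a difference in detected loci of -10 to -6.5 and in summed share of -0.248 to -0.161 percentage points. Of the 115 called loci, 82 to 98 were also called in those fits and 95 under quantile normalization. With the replicate number as a block, the calls numbered 105 (45 higher, 60 lower), and 100 of these were among the 115. Deviations of same-numbered cultures correlated at -0.104, -0.175 and 0.068 across loci, and the labels do not say that a number marks a shared batch. Whether the numbers pair the cultures is therefore not known, and the main fit did not pair them. Apart from NCU16741, NCU16822 and NCU16673, no late-numbered locus named by the rule above lost or gained a call in the alternatives that tested it. Late-numbered loci mentioned only as surroundings, such as NCU16803 (limma adjusted p = 0.0490), were not followed through the alternatives. The 10 rises and 10 falls had been chosen as called in these same cultures, so their kept calls are no independent support. The sign turned for NCU16635 under quantile normalization (0.19), for NCU15836 under quantile normalization (0.19), and among the fits that left out a culture for NCU16992 (-0.0614 to 0.152) and NCU15836 (-0.137 to 0.0236), none of them called; the cause was not tested. Depth is unknown, so the precision of low loci rests on the spread between cultures.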
